A study of Bos grunniens and Bos grunniens x Bos taurus with 6 samples.

Results

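Muscle takes up fatty acids from blood, carries them through the cytosol, and either burns them or stores them as triglyceride. Lipoprotein lipase frees fatty acids at the capillary wall, CD36 and transport proteins move them across the membrane, binding proteins carry them, and acyl-CoA synthetases activate them for use. Stearoyl-CoA desaturase makes monounsaturated fatty acids, and glycerol channels and glycerol-3-phosphate dehydrogenase link triglyceride with glycerol and glycolysis. In cattle and yak these genes are followed in longissimus dorsi because they bear on marbling, the fat deposited within the muscle.

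The 9 genes described here are LPL, CD36, SLC27A1, FABP3, FABP4, ACSL1, SCD, AQP7 and GPD1, chosen by name from 31044 gene identifiers. Each stands for the identifier that holds most reads under its symbol, with all transcripts of that identifier summed. Long reads of cDNA (nanopore cDNA-PCR sequencing) were counted in longissimus dorsi, a back muscle, in 3 samples of cattle-yak (labelled Bos grunniens x Bos taurus, the hybrid of cattle and yak) and 3 of yak (Bos grunniens). No treatment, genotype, sex or age is given for either group in the sources used here. Whether each sample is a separate animal is not given in the sources used here, and the p-values then reflect sample-to-sample spread that can include technical variation.

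The libraries held from 2366057 to 2769106 counts in cattle-yak and from 2350851 to 2502603 in yak. Of 8 skeletal muscle marker genes, 7 matched the table. Their summed level was 109759 to 132938 CPM (counts scaled to library size) in cattle-yak and 146418 to 155610 CPM in yak. DES was higher, MYH2 and MB were lower in cattle-yak and the other 4 did not pass (edgeR), where 12.6% of all genes tested passed. The name DES lay on 61.2% of the reads of its identifier and the name MYH2 on 53.8%. All CPM values are scaled with TMM, which corrects for a few abundant genes taking a larger share of one library. In bulk muscle, fewer cells of a type and less RNA per cell cannot be told apart. Counts are not divided by transcript length, and levels are compared between groups and not between genes.

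Of the 9 genes, 8 had enough reads to be tested and SLC27A1 did not. CD36 was higher in cattle-yak, AQP7 and GPD1 were lower, and 5 did not pass (edgeR adjusted p under 0.05 over all genes). Across all 7504 genes tested 12.6% passed, 6.45% as higher and 6.18% as lower in cattle-yak. Without cattle-yak 3 the number of the 9 genes passing was 5 of 9 tested, where 811 of all 8131 genes tested passed. Without yak 3 it was 1 of 8 tested, where 544 of all 8295 passed. With no filter on low counts it was 6, all lower, in a fit of 31044 genes, most with few reads, of which 4.56% passed and 2.5% passed as lower. The 2 groups of libraries did not overlap in 4 of the 8 genes tested (CD36, LPL, AQP7 and GPD1), and in 33% of all genes tested. Differences are given as the log2 ratio of cattle-yak over yak. The median log2 ratio of the 8 genes was -0.75, with 7 below 0, against a median of 0.02 over all genes tested, of which 48.1% were below 0. The median of the 8 cannot be read as a shift of the pathway, because the genes were chosen with earlier results known.

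**Figure D1:**
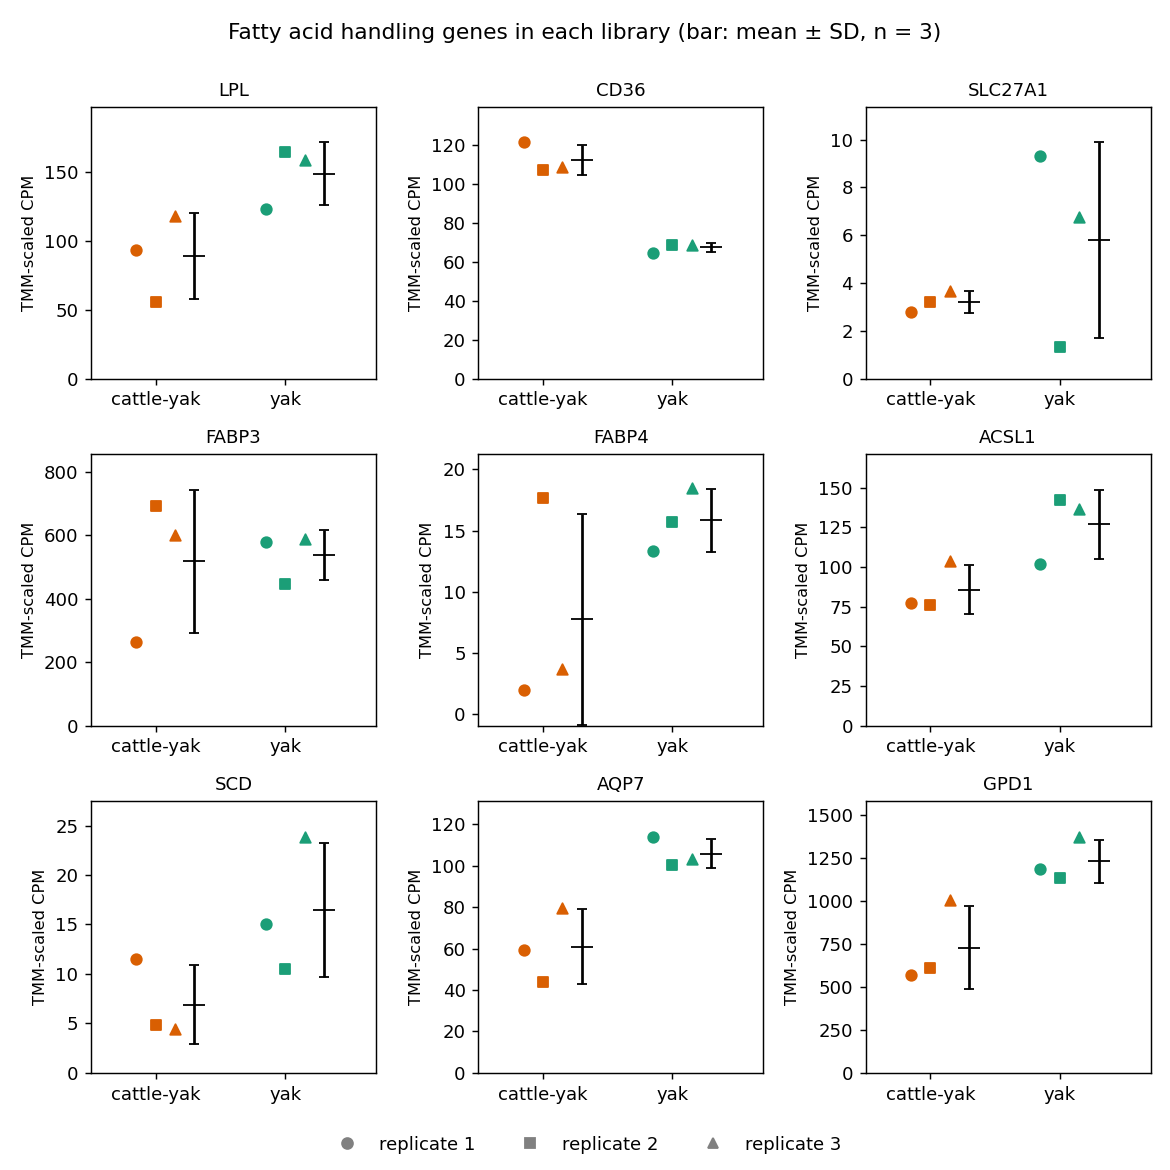
TMM-scaled CPM (y axis, from 0 except where an error bar passes below it) of the 9 genes in each library, cattle-yak left and yak right, with markers for the replicate numbers and black bars for mean ± SD (n = 3). The CD36 points of cattle-yak all lie above those of yak, the AQP7, GPD1 and LPL points all lie below them, and 1 cattle-yak library stands apart in FABP3 and in FABP4.

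LPL, the lipase anchored at the capillary wall, was at 93.0, 55.8 and 118 CPM in cattle-yak libraries 1, 2 and 3, against 123, 165 and 159 CPM in yak libraries 1, 2 and 3. The groups did not overlap, but the gap between the highest cattle-yak and the lowest yak library was small beside the spread within cattle-yak. The log2 ratio was -0.74 ± 0.24 (SE) and missed the threshold (edgeR adjusted p = 0.0668). Without cattle-yak 3 it was -1.01 and passed (edgeR adjusted p = 0.0209), and in the other 5 fits without a library LPL did not pass. Without cattle-yak 2 the log2 ratio was -0.48 (edgeR adjusted p = 0.146). Of the alternatives that kept all 6 libraries, LPL passed in the fit with no low count filter (-0.84, edgeR adjusted p = 0.00191). Of all LPL reads 70.6% lay in the reference transcript ENSBGRT00000010892, with 160, 87 and 245 reads in cattle-yak, against 204, 250 and 256 in yak (-0.73 ± 0.28, edgeR adjusted p = 0.0966). The next, TALONT000946521, had 15, 10 and 16 reads in cattle-yak, against 15, 21 and 17 in yak (-0.54 ± 0.35, edgeR adjusted p = 0.316). The use of the 2 LPL transcripts did not pass (edgeR adjusted p = 0.839).

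CD36, the fatty acid translocase of muscle, fat, capillary and macrophage membranes, was the gene of the set that rose. Its level was 122, 107 and 109 CPM in the cattle-yak libraries, against 64.8, 69.0 and 68.9 CPM in yak. All 3 cattle-yak libraries lay above every yak library, and the spread within each group was small beside the gap. The means were 113 ± 7.77 CPM in cattle-yak and 67.6 ± 2.43 CPM in yak (SD, n = 3 each), a log2 ratio of 0.74 ± 0.16 (SE, edgeR adjusted p = 0.00912). The call was kept without each of the 6 libraries (log2 ratio 0.67 to 0.78, edgeR adjusted p up to 0.0497). It was lost with no low count filter (0.62, edgeR adjusted p = 0.0631), a fit whose median over all genes was 0.24. Macrophages also carry CD36, and the summed level of 9 matched macrophage markers was 21.4, 68.3 and 83.3 CPM in cattle-yak libraries 1, 2 and 3, against 18.6, 9.61 and 37.4 CPM in yak. The part of macrophages in the CD36 level was not tested.

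No CD36 read lay in a reference transcript. The gene was spread over 80 assembled transcripts, with 53, 52 and 63 of them detected in the cattle-yak libraries, against 39, 41 and 33 in yak. Of the CD36 reads in cattle-yak, 10.1% lay in 22 transcripts with no yak read, and of those in yak, 2.63% lay in 6 transcripts with no cattle-yak read. The detected number also follows the number of reads, 871 in cattle-yak and 457 in yak.

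The CD36 transcript with the most reads, TALONT000882903, had 59, 61 and 50 reads in cattle-yak, against 16, 22 and 25 in yak, and rose by 1.26 ± 0.29 on the log2 scale (SE, edgeR adjusted p = 0.00863 over 15804 transcripts). Of 40 transcripts of the 9 genes that could be tested, 2 rose and 10 fell, where 9.64% of all transcripts tested rose and 8.86% fell. The call was lost without yak 1 (edgeR adjusted p = 0.0506). The second, TALONT000881522, had 29, 18 and 43 reads in cattle-yak, against 36, 28 and 36 in yak, with a log2 ratio of -0.34 ± 0.33 (edgeR adjusted p = 0.514). Its share of CD36 reads was 10.2% ± 3.93 in cattle-yak and 22.0% ± 3.72 in yak (SD, n = 3 each). Outside TALONT000882903 the other 79 transcripts summed to 90.5 ± 7.71 CPM in cattle-yak and 58.2 ± 1.00 CPM in yak, so the higher CD36 level was not carried by 1 transcript.

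The balance among the 3 CD36 transcripts with at least 5% of its reads changed (edgeR usage test, adjusted p = 0.038), where 8.62% of the 1821 genes tested passed. That call held in 1 of the 6 fits without a library, the one without cattle-yak 3, and elsewhere the adjusted p was up to 0.199. Different isoforms and cattle alleles assembled as transcripts of their own cannot be told apart in these counts.

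SLC27A1, the fatty acid transport protein FATP1 of muscle and fat, was close to the limit of detection. It had 7, 8 and 10 reads in cattle-yak, against 21, 3 and 15 in yak. The yak libraries lay on both sides of all cattle-yak libraries. Its transcripts with the most reads, TALONT000989973 and TALONT000990211, had at most 7 reads in a library. It was too low for the test with all 6 libraries. In the 4 fits without 1 library in which it could be tested it did not pass (edgeR adjusted p from 0.0959 to 0.5).

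FABP3, the heart-type binding protein that is the main fatty acid carrier of muscle cytosol, was at 263, 691 and 601 CPM in the cattle-yak libraries, against 578, 447 and 589 CPM in yak. Cattle-yak 1 stood below every other library, and the 2 other cattle-yak libraries lay above all yak ones. The log2 ratio was -0.05 ± 0.32 (SE, edgeR adjusted p = 0.94). Without cattle-yak 1 it was 0.26 (edgeR adjusted p = 0.401), with the sign turned. The reference transcript ENSBGRT00000014436, which carries the older symbol H-FABP, held 89.9% ± 2.08 of FABP3 reads in cattle-yak and 88.7% ± 1.22 in yak (SD, n = 3 each). In cattle-yak 1 both the H-FABP-named reads (230 CPM) and the FABP3-named reads (32.1 CPM) were lower than in every other library. The next, TALONT000416592, held 5.28% and 5.03% of FABP3 reads in cattle-yak and yak, with a log2 ratio of 0.05 ± 0.31 (edgeR adjusted p = 0.94). A minor transcript, TALONT000416776, with 1.65% of FABP3 reads, had 13, 13 and 19 reads in cattle-yak, against 27, 28 and 26 in yak, and fell by 1.02 on the log2 scale (SE 0.31, edgeR adjusted p = 0.0361). That call was lost in 5 of the 6 fits without a library (edgeR adjusted p up to 0.106), the exception being the fit without cattle-yak 3.

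FABP4, the binding protein of adipocytes, which capillary endothelium and macrophages also make, was scarce. It had 5, 44 and 10 reads (1.98, 17.7 and 3.67 CPM) in cattle-yak libraries 1, 2 and 3, against 30, 36 and 41 reads (13.3, 15.7 and 18.5 CPM) in yak. Cattle-yak 2 lay within the yak range and the 2 other cattle-yak libraries far below it. The log2 ratio was -1.03 ± 0.66 (SE, edgeR adjusted p = 0.36). Without cattle-yak 2 it was -2.45 (edgeR adjusted p = 0.00209), and in the other 5 fits without a library FABP4 did not pass. Without cattle-yak 1 it was -0.59 (edgeR adjusted p = 0.511), and with limma-voom -1.60 (adjusted p = 0.079). FABP4 passed with no low count filter (-1.18, edgeR adjusted p = 0.0162). Of its reads, 97.6% lay in 1 assembled transcript, TALONT000202162, with 5, 43 and 10 reads in cattle-yak, against 28, 36 and 40 in yak (log2 ratio -0.98 ± 0.69, edgeR adjusted p = 0.384). The other transcript, TALONT000202315, had 4 reads in all.

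Marker lists of the other cell types did not follow FABP4 in one way. The 4 matched adipocyte markers of 10 summed to 19.0, 27.3 and 25.3 CPM in cattle-yak, against 21.7, 18.8 and 18.0 CPM in yak. No gene of the table took the names ADIPOQ, PLIN1, LEP, LIPE or RETN. CFD made up most of the adipocyte sums, with a mean of 17.4 CPM in cattle-yak and 12.4 CPM in yak. Only 23.7% of the reads of its identifier carry the name CFD. It had 31, 47 and 57 reads in cattle-yak, against 29, 32 and 23 in yak. CIDEA had 17, 20 and 10 in cattle-yak, against 16, 8 and 11 in yak. CIDEC had 0, 0 and 2 reads in cattle-yak, against 2, 2 and 6 in yak, and TRARG1 had at most 2 in a library. The 10 endothelial markers summed to 60.2, 120 and 69.8 CPM in cattle-yak, against 75.4, 58.1 and 66.7 CPM in yak. Cattle-yak 2, the library with the high FABP4, had the highest endothelial and adipocyte levels of the 6 libraries, and the part of these cells in the FABP4 level was not tested. None of the 2 adipocyte, 5 endothelial or 3 macrophage markers that could be tested passed in edgeR, at an adjusted p of 0.163 or more. Among those too low for the test, the macrophage marker CD163 had 7, 25 and 27 reads in cattle-yak, against 1, 0 and 3 in yak. The endothelial marker VWF had 9, 26 and 18 in cattle-yak, against 3, 3 and 0 in yak. Both are picked here because their groups did not overlap, as in 33% of all genes tested. In the other untested endothelial and macrophage markers the groups overlapped.

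**Figure D2:**
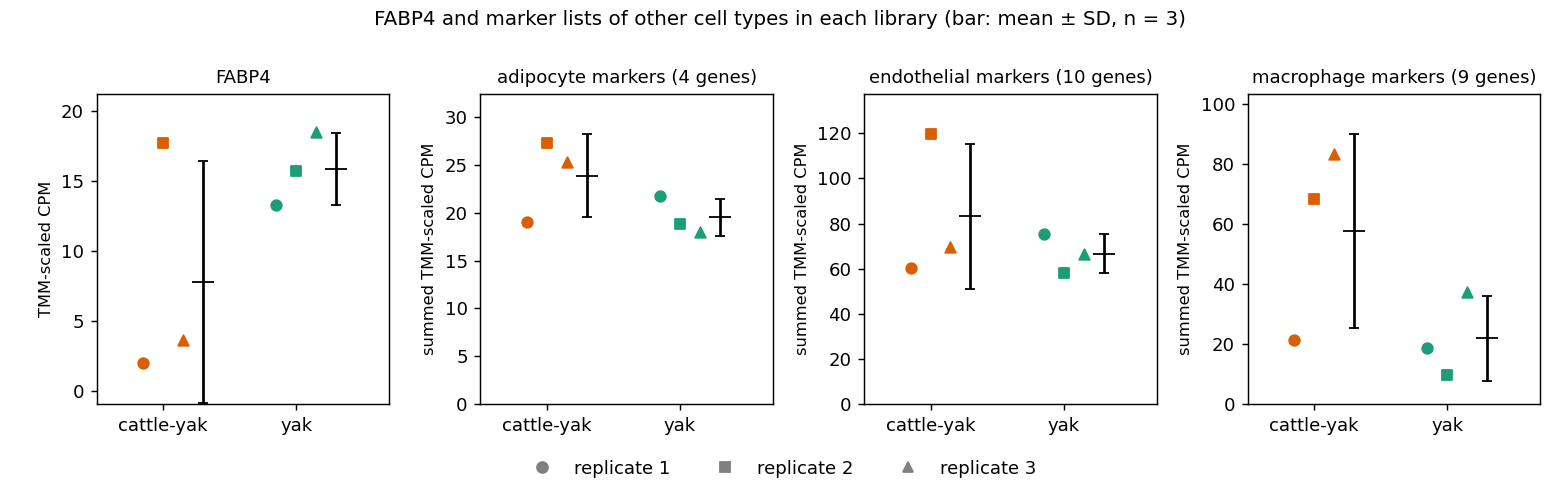
FABP4 and the summed markers of adipocytes, endothelium and macrophages (y axes, TMM-scaled CPM) in each library, cattle-yak left and yak right, with markers for replicate numbers and bars for mean ± SD (n = 3). Cattle-yak 2 is high in FABP4 (17.7 CPM) and in the endothelial list (120 CPM), and cattle-yak 2 and 3 are high in the macrophage list.

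ACSL1, the main long-chain acyl-CoA synthetase of muscle and fat, was at 77.6, 76.3 and 104 CPM in the cattle-yak libraries, against 102, 142 and 136 CPM in yak. Cattle-yak 3 and yak 1 overlapped. The whole gene had a log2 ratio of -0.56 ± 0.19 (SE, edgeR adjusted p = 0.0681), which passed without cattle-yak 3 (-0.73, edgeR adjusted p = 0.039) or yak 1 (-0.72, edgeR adjusted p = 0.0466) and with no low count filter (-0.68, edgeR adjusted p = 0.0263), and did not pass in the other 4 fits without a library. The difference between the groups was clearer in 2 of the 4 transcripts tested than in the sum.

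The ACSL1 transcript TALONT000807900, whose annotation cites Bos taurus, had 35, 27 and 51 reads in cattle-yak, against 97, 107 and 112 in yak, and fell by 1.67 on the log2 scale (SE 0.25, edgeR adjusted p = 0.000545). TALONT000807087, whose annotation cites bison, had 25, 30 and 45 reads in cattle-yak, against 55, 87 and 67 in yak, and fell by 1.24 (SE 0.28, edgeR adjusted p = 0.00796). In both transcripts all cattle-yak libraries lay below all yak libraries, and both calls were kept without each of the 6 libraries. TALONT000807374 had 44, 26 and 46 reads in cattle-yak, against 10, 24 and 20 in yak, with a log2 ratio of 0.92 ± 0.36 (edgeR adjusted p = 0.0918).

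As shares of ACSL1 reads, TALONT000807900 held 16.7% ± 2.17 in cattle-yak and 37.3% ± 4.69 in yak, and TALONT000807087 held 14.8% ± 1.80 in cattle-yak and 24.2% ± 2.30 in yak (SD, n = 3 each). TALONT000807374 held 17.5% ± 4.50 in cattle-yak and 6.10% ± 1.57 in yak. The use of ACSL1 transcripts changed (edgeR usage test, adjusted p = 0.000683), and did so in each of the 6 fits without a library (edgeR adjusted p up to 0.0161). The 2 transcripts that fell summed to 27.3 ± 6.90 CPM in cattle-yak and 77.6 ± 9.04 CPM in yak. The other 55 summed to 58.5 ± 8.47 CPM in cattle-yak and 49.4 ± 12.8 CPM in yak. This split was made by the calls in these same data, which favours a lower first sum and no fall in the rest.

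A further identifier, TALONG000092620, held 1 transcript named ACSL1, with 56, 90 and 57 reads in cattle-yak, against 23, 43 and 31 in yak. All cattle-yak libraries lay above all yak libraries there, and the log2 ratio was 0.88 ± 0.30 (SE, edgeR adjusted p = 0.0698). With all reads of every identifier that took the name ACSL1 summed, the gene's log2 ratio was -0.31 (edgeR adjusted p = 0.284). The size of the ACSL1 estimate thus moves with which identifiers are counted as the gene.

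SCD, the desaturase that turns stearate into oleate, was low in both groups. It had 29, 12 and 12 reads (11.5, 4.82 and 4.41 CPM) in cattle-yak, against 34, 24 and 53 reads (15.1, 10.5 and 23.9 CPM) in yak. Cattle-yak 1 lay between yak 2 and yak 1, and the other cattle-yak libraries lay below all yak ones. The log2 ratio was -1.25 ± 0.42 (SE, edgeR adjusted p = 0.0676). SCD passed without cattle-yak 1 (-1.83, edgeR adjusted p = 0.0124) or yak 2 (-1.52, edgeR adjusted p = 0.0495) and with no low count filter (-1.37, edgeR adjusted p = 0.00303), and did not pass in the other 4 fits without a library. Its main reference transcript, ENSBGRT00000044889, had 20, 7 and 6 reads in cattle-yak, against 21, 18 and 35 in yak (log2 ratio -1.33 ± 0.47, edgeR adjusted p = 0.065). The transcript next in number, TALONT000574436, had 9, 3 and 1 reads in cattle-yak, against 5, 5 and 9 in yak, too few to test.

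AQP7, the channel that lets glycerol cross fat and muscle membranes, was at 59.4, 43.8 and 79.7 CPM in the cattle-yak libraries, against 114, 100.5 and 103 CPM in yak. All cattle-yak libraries lay below all yak libraries. The means were 60.9 ± 18.0 CPM in cattle-yak and 106 ± 7.17 CPM in yak (SD, n = 3 each), a log2 ratio of -0.79 ± 0.21 (SE, edgeR adjusted p = 0.024). The call was lost without cattle-yak 2 (-0.60, edgeR adjusted p = 0.0716), yak 1 (-0.76, 0.0705) or yak 3 (-0.83, 0.0614), and with reference transcripts only (-0.63, 0.0617). The direction was the same in these fits.

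Only 34.6% of the reads of the AQP7 identifier lay in transcripts that carry the symbol. The rest had none, and the largest such transcript, the reference transcript ENSBGRT00000002935, is described as aquaporin-7 of Bos mutus. Split by symbol, in a fit added after seeing the data, the AQP7-named reads did not pass (-0.72 ± 0.24, edgeR adjusted p = 0.0631) and the reads with no symbol were lower in cattle-yak (-0.83 ± 0.23, edgeR adjusted p = 0.0318). ENSBGRT00000002935 had 83, 63 and 129 reads in cattle-yak, against 143, 141 and 143 in yak, and fell by 0.82 on the log2 scale (SE 0.24, edgeR adjusted p = 0.0259), a call lost in every fit without a library but that without cattle-yak 3 (edgeR adjusted p up to 0.104). The next, TALONT000953359, had 4, 5 and 16 reads in cattle-yak, against 16, 9 and 20 in yak (edgeR adjusted p = 0.18). The use of the 2 AQP7 transcripts tested did not pass (edgeR adjusted p = 0.85).

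GPD1, the cytosolic glycerol-3-phosphate dehydrogenase that makes the glycerol backbone of triglyceride and shuttles reducing power from glycolysis, was the most read of the 9 genes. It was at 570.4, 607 and 1005 CPM in the cattle-yak libraries, against 1184, 1135 and 1373 CPM in yak. All cattle-yak libraries lay below all yak libraries, with cattle-yak 3 nearest to them. The log2 ratio was -0.76 ± 0.21 (SE, edgeR adjusted p = 0.0325). The call was kept without cattle-yak 3 and lost in the 5 other fits without a library (cattle-yak 1, cattle-yak 2, yak 1, yak 2 or yak 3, edgeR adjusted p up to 0.11), and when counts were scaled by library totals (-0.61, edgeR adjusted p = 0.0534).

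The GPD1 identifier holds reads of 2 names. Of its 14007 reads, 84.6% lay in 78 transcripts named GPD1 and 15.4% in 39 transcripts named COX14, a cytochrome c oxidase assembly factor. In the RefSeq annotation of the yak assembly Bosgru_T2T1.0, COX14 lies beside GPD1, with 1 long noncoding gene between them in order of start. The GPD1-named reads were 1072, 1147 and 2162 in cattle-yak, against 2431, 2301 and 2736 in yak. The COX14-named reads were 369, 365 and 576 in cattle-yak, against 238, 298 and 312 in yak. The GPD1-named reads were lower in every cattle-yak library than in any yak one, and the COX14-named reads were higher.

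As levels, the GPD1-named reads were 559.6 ± 204 CPM in cattle-yak and 1105 ± 116 CPM in yak, and the COX14-named reads 168 ± 37.6 CPM in cattle-yak and 125 ± 18.0 CPM in yak (SD, n = 3 each). With identifier and symbol together as the feature, a fit added after seeing the data, the GPD1-named reads had a log2 ratio of -0.98 ± 0.22 (SE, edgeR adjusted p = 0.0134) and the COX14-named reads one of 0.42 ± 0.19 (edgeR adjusted p = 0.166). In that fit 12.7% of 8162 features passed. The call on GPD1-named reads was lost without cattle-yak 2 (-0.85, edgeR adjusted p = 0.0518) or yak 3 (-0.91, 0.0531) and kept in the 4 other fits. The COX14-named reads passed in none of the 6.

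Of 23 transcripts of the GPD1 identifier that were tested, 6 fell, 1 rose and 16 did not pass. Of all transcripts tested 8.86% fell and 9.64% rose. Transcripts of 1 identifier are not separate results. All 6 that fell carry the name GPD1, and the 1 that rose carries the name COX14. The reference transcript ENSBGRT00000005502 had 657, 687 and 1334 reads in cattle-yak, against 1662, 1581 and 1841 in yak, and fell by 1.12 on the log2 scale (SE 0.23, edgeR adjusted p = 0.00466), a call kept without each library. TALONT001327539 (30, 41 and 52 reads in cattle-yak, against 70, 75 and 94 in yak) fell by 1.14 (edgeR adjusted p = 0.00847) and also kept its call in all 6 fits. The other 4, TALONT001327557, TALONT001327662, ENSBGRT00000005454 and TALONT001327675, each held 1.19% or less of the reads and fell by 1.30 to 1.54, and each lost its call without at least 1 library.

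The COX14-named transcript TALONT001338581 had 136, 138 and 219 reads in cattle-yak, against 65, 102 and 88 in yak, and rose by 0.77 ± 0.24 on the log2 scale (SE, edgeR adjusted p = 0.0363). That call was lost in 4 of the 6 fits without a library (edgeR adjusted p up to 0.174), those without cattle-yak 3, yak 1, yak 2 or yak 3. It held 8.85% ± 0.76 of the identifier's reads in cattle-yak and 3.08% ± 0.76 in yak (SD, n = 3 each), while ENSBGRT00000005502 held 46.6% ± 1.85 in cattle-yak and 61.2% ± 0.98 in yak. The usage test, which set these transcripts of different names against each other, passed (edgeR adjusted p = 0.00074) and was kept without each library.

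**Figure D3:**
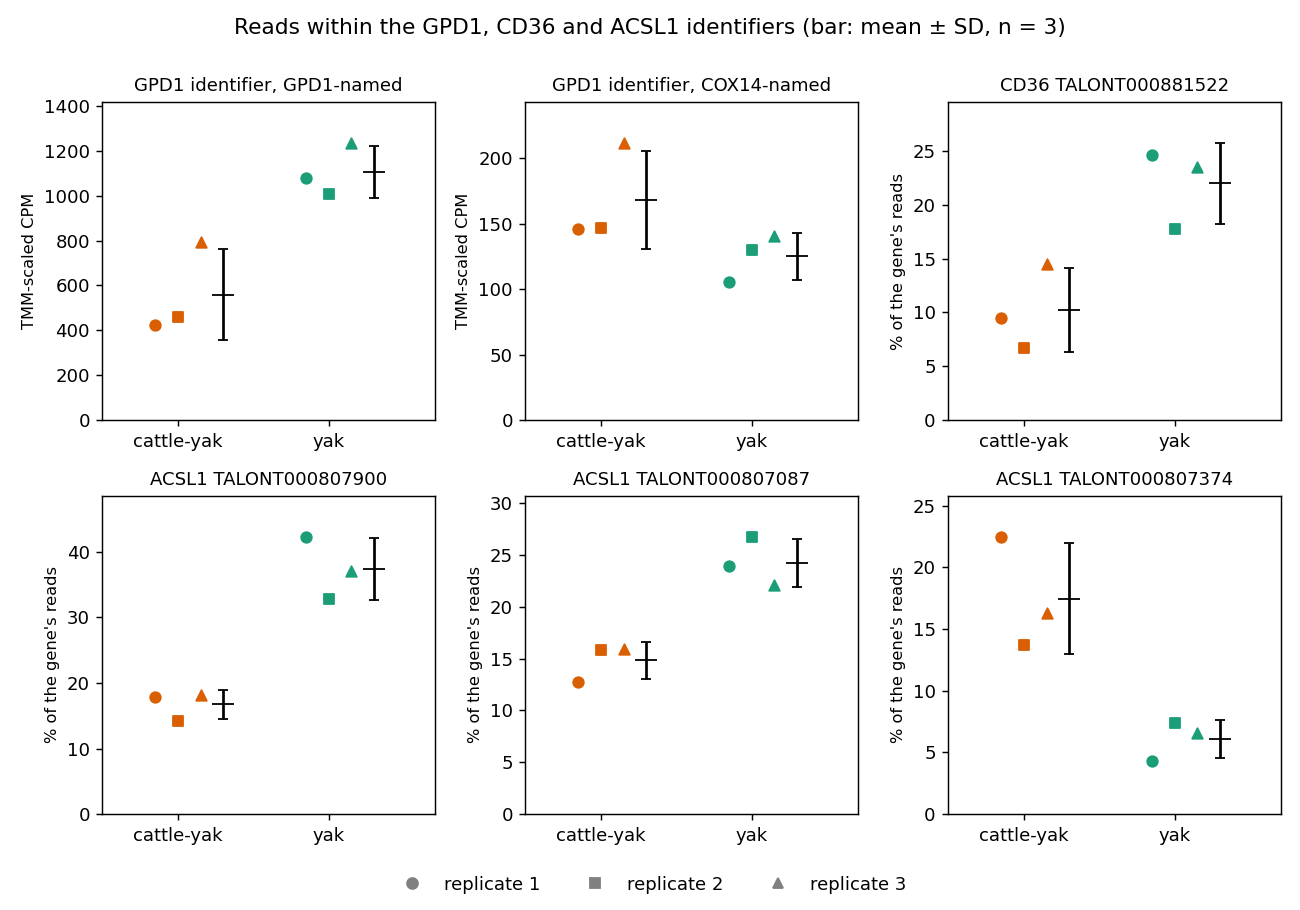
Reads within 3 identifiers in each library, cattle-yak left and yak right, as TMM-scaled CPM for the GPD1-named and COX14-named reads of the GPD1 identifier and as % of the gene's reads for 1 CD36 and 3 ACSL1 transcripts, with markers for replicate numbers and bars for mean ± SD (n = 3). The GPD1-named level is lower in cattle-yak and the COX14-named level higher, and ACSL1 shares of TALONT000807900 (16.7% in cattle-yak, 37.3% in yak) and TALONT000807374 (17.5% in cattle-yak, 6.10% in yak) differ in opposite directions.

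**Figure D4:**
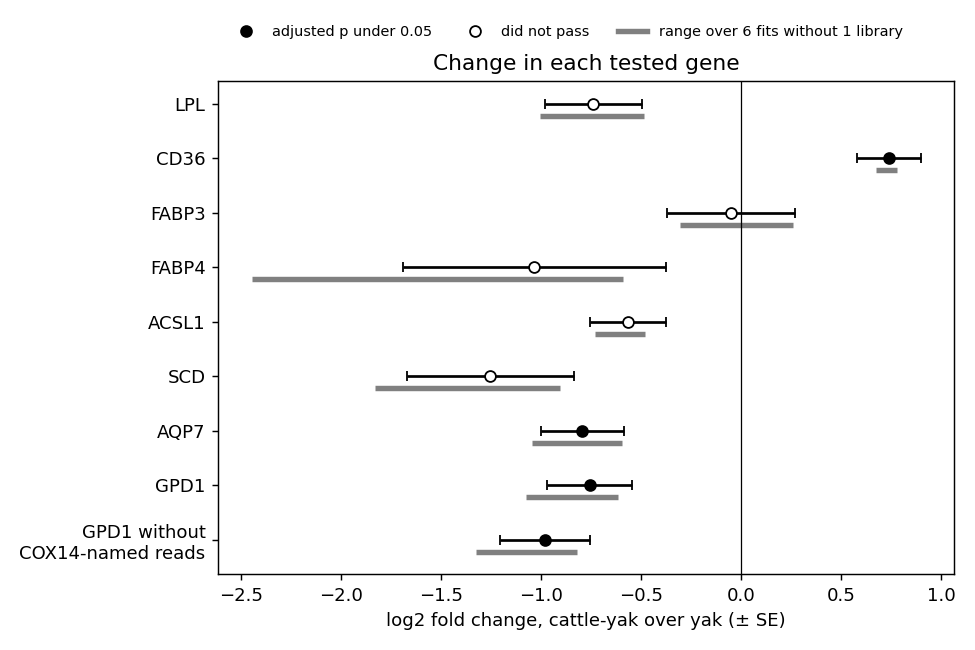
Log2 ratio of cattle-yak over yak (x axis) with its SE for the 8 tested genes and for GPD1 without COX14-named reads, with filled points for an adjusted p under 0.05 and grey bars for the range over the 6 fits that leave out 1 library. CD36 alone lies above 0 (0.74), its range is the shortest, and that of FABP4 reaches -2.45.

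Other genes of the same pathway were taken from 6 lists of 64 symbols, of which 51 matched an identifier and 24 could be tested. Of the 24, 1 rose, 2 fell and 21 did not pass, which is 3 called beside the 12.6% of all genes. Their median log2 ratio was -0.02, with 12 of 24 below 0. Those that passed kept their calls without each of the 6 libraries.

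ACACB, the acetyl-CoA carboxylase whose product malonyl-CoA restrains fatty acid entry into mitochondria, was at 48.7, 59.8 and 25.7 CPM in cattle-yak, against 7.10, 6.99 and 10.4 CPM in yak. The groups were far apart, and it rose by 2.45 ± 0.33 on the log2 scale (SE, edgeR adjusted p = 0.000584). It was the gene of the synthesis, desaturation and elongation list that passed, of 6 tested. TECR (-0.10 ± 0.16, edgeR adjusted p = 0.749) and HACD1 (-0.23 ± 0.20, edgeR adjusted p = 0.49), enzymes of the elongation of very long fatty acids, were among the 5 that did not.

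In the uptake and binding list 2 of 5 tested genes fell, where 6.18% of all genes tested passed as lower. They were the 2 that fell among the 24 tested genes of all 6 lists. GOT2, the mitochondrial aspartate aminotransferase that also serves as a fatty acid binding protein at the membrane, was at 314, 472 and 542 CPM in cattle-yak, against 716, 895 and 824 CPM in yak, a log2 ratio of -0.87 ± 0.20 (SE, edgeR adjusted p = 0.0117). ACBD5, an acyl-CoA binding protein of peroxisomes, was at 19.4, 15.7 and 19.8 CPM in cattle-yak, against 36.8, 39.3 and 42.3 CPM in yak (-1.11 ± 0.21, edgeR adjusted p = 0.00419). Both were lower in every cattle-yak library. FABP5, the epidermal-type binding protein found in macrophages and endothelium, was at 125, 311 and 274 CPM in cattle-yak, against 97.6, 131 and 142 CPM in yak, with a log2 ratio of 0.94 ± 0.32 that did not pass (edgeR adjusted p = 0.0879). CAV1, the coat protein of caveolae, had one of 0.09 ± 0.22 (edgeR adjusted p = 0.832).

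FABP5 and the macrophage list were both lowest in cattle-yak 1 of the cattle-yak libraries, and FABP3 was as well. The part of macrophages in the FABP5 level was not tested.

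The lipoprotein lipase list had 2 tested genes, and neither passed. GPIHBP1, which anchors LPL on capillary endothelium, was at 2.37, 12.9 and 5.51 CPM in cattle-yak, against 7.10, 0 and 4.96 CPM in yak (log2 ratio 0.77 ± 0.91, edgeR adjusted p = 0.633). It was highest in cattle-yak 2, where LPL was lowest. LRP1, a receptor for lipoprotein remnants, had a log2 ratio of 0.05 ± 0.35 (edgeR adjusted p = 0.942).

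None of the 2 acyl-CoA synthesis, 6 glycerol or 3 regulator genes passed in edgeR. ACSL4, which prefers arachidonate, had a log2 ratio of -0.65 ± 0.29 (edgeR adjusted p = 0.16) and ACSS2, the cytosolic acetyl-CoA synthetase, one of -0.52 ± 0.37 (edgeR adjusted p = 0.403). GPD2, the mitochondrial partner of GPD1 in the glycerol phosphate shuttle, had 47, 80 and 100 reads in cattle-yak, against 45, 39 and 36 in yak (0.72 ± 0.27, edgeR adjusted p = 0.1), so its estimate had the opposite sign to that of GPD1. PGP, a phosphatase of glycerol 3-phosphate, had a log2 ratio of -0.49 ± 0.31 (edgeR adjusted p = 0.342), with its name on 33.3% of its reads. The regulator NR1H3, the sterol receptor LXR alpha that drives SCD transcription, had one of 0.26 ± 0.26 (edgeR adjusted p = 0.549), and PPARGC1A one of -0.68 ± 0.40 (edgeR adjusted p = 0.301).

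**Figure D5:**
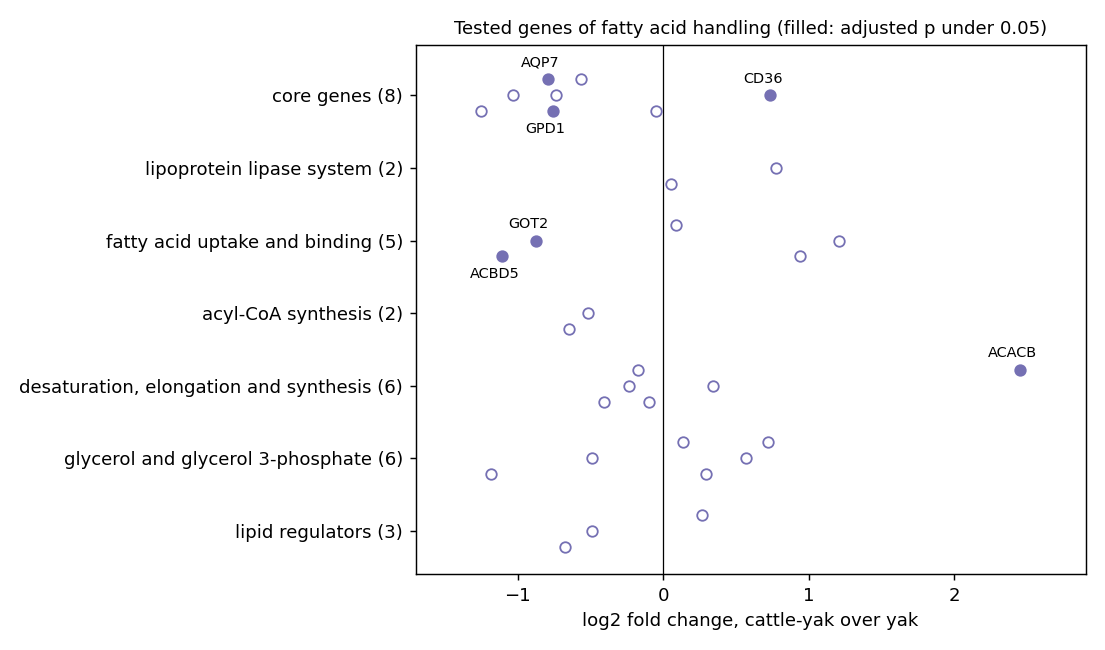
Log2 ratio of cattle-yak over yak (x axis) of every tested gene among the 9 core genes and the 6 pathway lists (y axis, number tested in parentheses), with filled and named points for an adjusted p under 0.05. Among the lists only ACACB (2.45), GOT2 (-0.87) and ACBD5 (-1.11) are filled, and open points lie on both sides of 0.

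The 3 genes with the pattern over the 6 libraries most like each of FABP4, SCD and LPL were taken by the smallest root mean square distance of centred log2(CPM + 1), among 5347 other named genes, as a description. For FABP4 they were OCIAD2 (distance 0.36 log2 units), PPM1J (0.37) and APOLD1 (0.41). PPM1J was at 1.19, 6.43 and 3.30 CPM in cattle-yak, against 9.32, 9.17 and 11.7 CPM in yak. All 3 were, like FABP4, highest in cattle-yak 2 among the cattle-yak libraries, which the choice by pattern favours. For SCD they included EGLN3 (0.23) and MAP3K7 (0.25). EGLN3, an oxygen-sensing prolyl hydroxylase, was at 8.31, 4.82 and 3.30 CPM in cattle-yak, against 11.5, 10.5 and 14.9 CPM in yak. For LPL they were SDHAF3 (0.08), TMEM41B (0.08) and C4ORF54 (0.10), all lowest in cattle-yak 2, which the choice by pattern favours as well.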

How the data were processed

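The 6 libraries come as one transcript table in which the authors deposited raw read counts and their CPM. CPM equalled counts over the library total within 0.005, so the authors' scaling was to library totals. The submitters' processing notes list the tools fastp, minimap2 and GSNAP. The genome build is not given in the sources used here, nor is the counting software. The table held 179856 transcripts after 132 lines of overflowing annotation were dropped, and 61 transcripts with no gene identifier (0.00249% of a library or less) were not used.

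Counts were added up per gene identifier. Its symbol is the one on at least 50% of symbol-bearing reads and 2% of all reads (13868 identifiers), and FABP3 also stands for the deposited symbol H-FABP. Tests were edgeR 4.0.16 in R 4.3.3 (filterByExpr, TMM, robust quasi-likelihood, Benjamini-Hochberg adjustment) for genes and for transcripts, and diffSpliceDGE for the use of transcripts with at least 5% of their gene's counts. They were checked on simulated data. Alternatives used DESeq2 1.42.0 and limma 3.58.1. The SE of a log2 ratio is its size over the square root of F. Figures used Python 3.11.15 and matplotlib 3.10.9.

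The 9 genes, the lists and the tests were chosen with earlier results of these data known. Named genes were the 9, pathway genes that passed and the 2 most abundant others per list, transcripts that passed or were the 2 most abundant of their gene, and the 3 nearest patterns of FABP4, SCD and LPL, of which 1 is not reported here. PCR reads are not independent molecules. RefSeq positions (assembly Bosgru_T2T1.0) served only for the order of genes beside GPD1, and no sequence was used.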

Additional observations from a re-analysis of the deposited data

How the results depend on the processing

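No called log2 ratio changed direction under any alternative. FABP3, which did not pass, changed sign in some fits, as without cattle-yak 1 (0.26, against -0.05). The values of single genes and transcripts were 426 log2 ratios and usage adjusted p-values, the latter without a direction. Of these, 350 kept their side of the threshold, 60 lost their call and 16 gained one. Against 948 genes (484 higher, 464 lower), library size alone gave 676 higher and 296 lower, and shifted the median log2 ratio over all tested genes to 0.18, against 0.02. The 3 of the 9 genes that passed became 6 with no low count filter, all lower (LPL, FABP4, SCD, ACSL1, AQP7 and GPD1), in a fit of 31044 genes with a median of 0.24, and 1 with reference transcripts only, where 194 genes passed among fewer features. The 3 pathway genes, of 24 tested, became 6 of 51 with no filter, where 1417 of 31044 genes passed. The 12 transcripts of the 9 genes, of 40 tested, became 7 of 40 with DESeq2 and 19 of 350 with no filter. All transcripts passing, 2924 of 15804, became 2201 of 15804 with DESeq2 and 3892 of 179795 with no filter. With a mean of at least 10 CPM 1651 of 7167 passed. Usage was called in 157 genes, against 308 with no minimum share and 81 with 10%. Apart from fewer features, the cause was not tested. Leaving out 1 library gave 544 (without yak 3; 616 without yak 2) to 997 genes, 2053 to 3006 transcripts and 75 to 149 genes with changed usage (77 without cattle-yak 2, and 84, 92 and 75 without yak 1, 2 and 3). It gave 1 (without yak 3) to 5 (without cattle-yak 3) of the 9 genes. Pathway genes passing were 3 to 7 (7 without cattle-yak 1, 6 without yak 2). Transcripts of the 9 genes passing were 6 (of 49 tested, without yak 3) to 16 (of 50, without cattle-yak 3). Only 6 of the 9 genes entered the usage test, and 2 to 3 of them had changed usage. Over all genes usage passed in 75 of 2071 without yak 3 and 149 of 2016 without cattle-yak 1. With a replicate block 890 genes and the same number of the 9 genes, 3, passed. Same-numbered libraries did not deviate together over all genes (correlations -0.04 to 0.02). With 3 libraries per group this cannot settle whether the numbers pair the samples, and the labels do not say. Reads split by symbol were added after seeing the data. SLC27A1, FABP4 and SCD had at most 53 reads in a library, which limits the precision of their ratios.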

Other observations

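With no low count filter, 2 pathway genes too low for the main test passed, and they were picked here for those values. ANGPTL4, a secreted inhibitor of LPL, had 20, 9 and 16 reads in cattle-yak, against 2, 2 and 0 in yak (log2 ratio 3.09 ± 0.70 SE, edgeR adjusted p = 0.000568). MLYCD, which breaks down the malonyl-CoA that ACACB makes, had 6, 21 and 27 reads in cattle-yak, against 1, 5 and 3 in yak (2.22 ± 0.57, edgeR adjusted p = 0.00422). In both genes every cattle-yak library was above every yak library, which adds no support, because both were picked for passing. In MLYCD the nearest libraries were cattle-yak 1 (6 reads, 2.37 CPM) and yak 2 (5 reads, 2.18 CPM). Over all 31044 genes of the fit with no low count filter the median log2 ratio was 0.24, and 4.56% passed. FABP5 also passed in that fit (0.81 ± 0.20, edgeR adjusted p = 0.00249).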
